A study of Mus musculus with 6 samples.

Results

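Genes of the peroxisome were followed in interscapular brown fat, the heat-producing depot between the shoulder blades, of mice held in the cold. The set holds 41 genes, chosen by name with earlier results of these data known. They are 12 peroxins, which build the organelle, and 29 membrane carriers and enzymes of its lipid and redox metabolism. Reads fell on 39 of the 41, out of 8129 genes with a read in the series, and 25 of the 41 had enough reads to be tested, out of 2093 genes tested. All mice were wild type C57BL/6N males aged 20 weeks. The cold group was 3 mice kept alone at 4 °C for 24 h, and the control group was 3 mice whose temperature is known from the husbandry text alone, 22 to 24 °C. Whether the control mice were also housed alone is not given, so the cold and single housing cannot be told apart. The fat is a whole depot, so a lower level from fewer cells of a type and one from less RNA per cell cannot be told apart.

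Peroxisomes shorten very long, branched and dicarboxylic fatty acids by beta-oxidation, break down the hydrogen peroxide that this makes, and start the synthesis of ether lipids. Their shortened acyl groups leave as carnitine esters or free acids and can be burned to the end in mitochondria. The organelle has no genome: its matrix enzymes are made in the cytosol and brought in by receptors among the peroxins, most of them through a signal in the last 3 residues of the protein. Brown fat is known for abundant peroxisomes, whose number increases in cold-exposed rodents.

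The genes were chosen by name, not by the codons that encode this import signal. As most matrix enzymes are known to carry the signal, a high share among them follows from that choice. The canonical signal needs a codon for serine, alanine or cysteine, then one for lysine, arginine or histidine, then one for leucine or methionine, just before the stop codon. In the most-read protein-coding transcript of each gene, 15 of the 41 members, and 15 of the 39 with a read, ended in this pattern. Among the 7097 protein-coding genes with a read, members included, the share was 0.761%. It was found in all 5 thioesterases, carnitine transferases and Mlycd, in 3 of the 4 redox enzymes and proteases, in 3 of the 5 core beta-oxidation genes, in 3 of 7 auxiliary oxidation genes and in 1 of 3 ether lipid genes. None of the 12 peroxins and none of the 5 membrane carriers and channels had it. The last 30 coding bases, 5′ to 3′, are shown for members on which the results below turn, with the last 3 codons in capitals. The sequences are from GENCODE M21 transcripts on GRCm38.
Acot8: ttgaagcctcaggtgtcagagAGTAAGCTA
Mlycd: gtagcccagttccagaacaacAGCAAACTC
Crat: ctactccagaaccaccccaggGCCAAGCTC
Idh1: ttgaaggccaaattagctcagGCCAAACTT
Scp2: cttcagcttcagccgggcaaaGCTAAGCTG
Ech1: gacacaaaaagcatcaccttcTCCAAGCTC
Cat: cacatggctgcgaagggaaaaGCTAACCTG
Slc25a17: gtaatgggcttgaagagcacaCATAAGCAC
The first 6 carry the pattern. Cat, the catalase gene, has another middle codon and falls outside it, and catalase is known to enter by a noncanonical signal. Slc25a17 encodes a membrane protein, which does not use this route. Acaa1a, Acaa1b, Phyh and Agps, also without the pattern, encode enzymes known to enter by a signal near the start of the protein.

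Levels are CPM, read counts scaled to library size, and changes are log2 cold minus control ± standard error. Library totals ran from 1014847 to 1849431 reads in control and from 2923005 to 2982713 in cold, so the effect of depth and that of the cold cannot be told apart in unscaled counts. Where 3 reads are taken as the least that can be read as a level, this floor lay at 1.62 to 3.08 CPM in control and 0.988 to 1.01 CPM in cold. Samples carry the mouse numbers 2, 9 and 14 (control) and 4, 11 and 15 (cold). Ucp1, the defining gene of brown fat, stood at 4081 to 4792 CPM in all 6 libraries. Of the 7 brown adipocyte markers 5 were tested: Elovl3 (3.69, adjusted p = 6.1e-05) and Kcnk3 (1.35, adjusted p = 0.00176) rose, Cox8b fell (-0.98, adjusted p = 0.0127), and Ucp1 and Cidea did not pass. The 5 white adipocyte markers summed to 66.5 to 119 CPM in control and 167 to 256 CPM in cold, nearly all of it Retn, which rose (1.07 ± 0.27, adjusted p = 0.0121), with Hoxc9 at 0. The part of these shifts in the results below was not tested. The 5 erythroid markers summed to 14978 to 28132 CPM in control and 16327 to 22521 CPM in cold. None of the 4 hepatocyte markers had a read. The 7 skeletal muscle markers summed to 55.2, 224 and 388 CPM in control and to 74.5, 1044 and 5361 CPM in cold, so cold 11 and cold 15 lay above every control and cold 4 did not. The 5 endothelial markers summed to at most 10.3 CPM in a library, the 5 macrophage markers to at most 1.32 CPM, with Adgre1, Cd68 and Csf1r at 0, and the 5 fibroblast markers to at most 22.1 CPM, with Col1a1 and Col3a1 at 0.

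Cold was compared with control to ask which of the peroxisomal genes differ after a day at 4 °C. Of the 25 tested members 11 rose and 2 fell at an adjusted p under 0.05. Over all 2093 tested genes 33.2% were called, 18.1% higher and 15.1% lower, against 52%, 44% and 8% of the tested members. The groups did not overlap in 16 of the 25, against 47.8% of all tested genes. All cold libraries lay above all controls in 13 of them, against 26.0% of all tested genes, and below in 3, against 21.8%. The median change was 0.64 over the tested members and 0.04 over all tested genes. The members were chosen with earlier results of these data known. These comparisons thus describe the list and are no support of their own. Of the 25, 23 reached the filter level of 4.19 CPM in all 6 libraries, Pex2 in 5 and Pex3 in 3. The rises included carriers, acyl-CoA and carnitine enzymes and 2 of 8 tested peroxins. Of the 4 tested core genes of the oxidation spiral itself 2 were called higher and 1 lower. Each of these core calls was lost when some single libraries were left out.

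**Figure D1:**
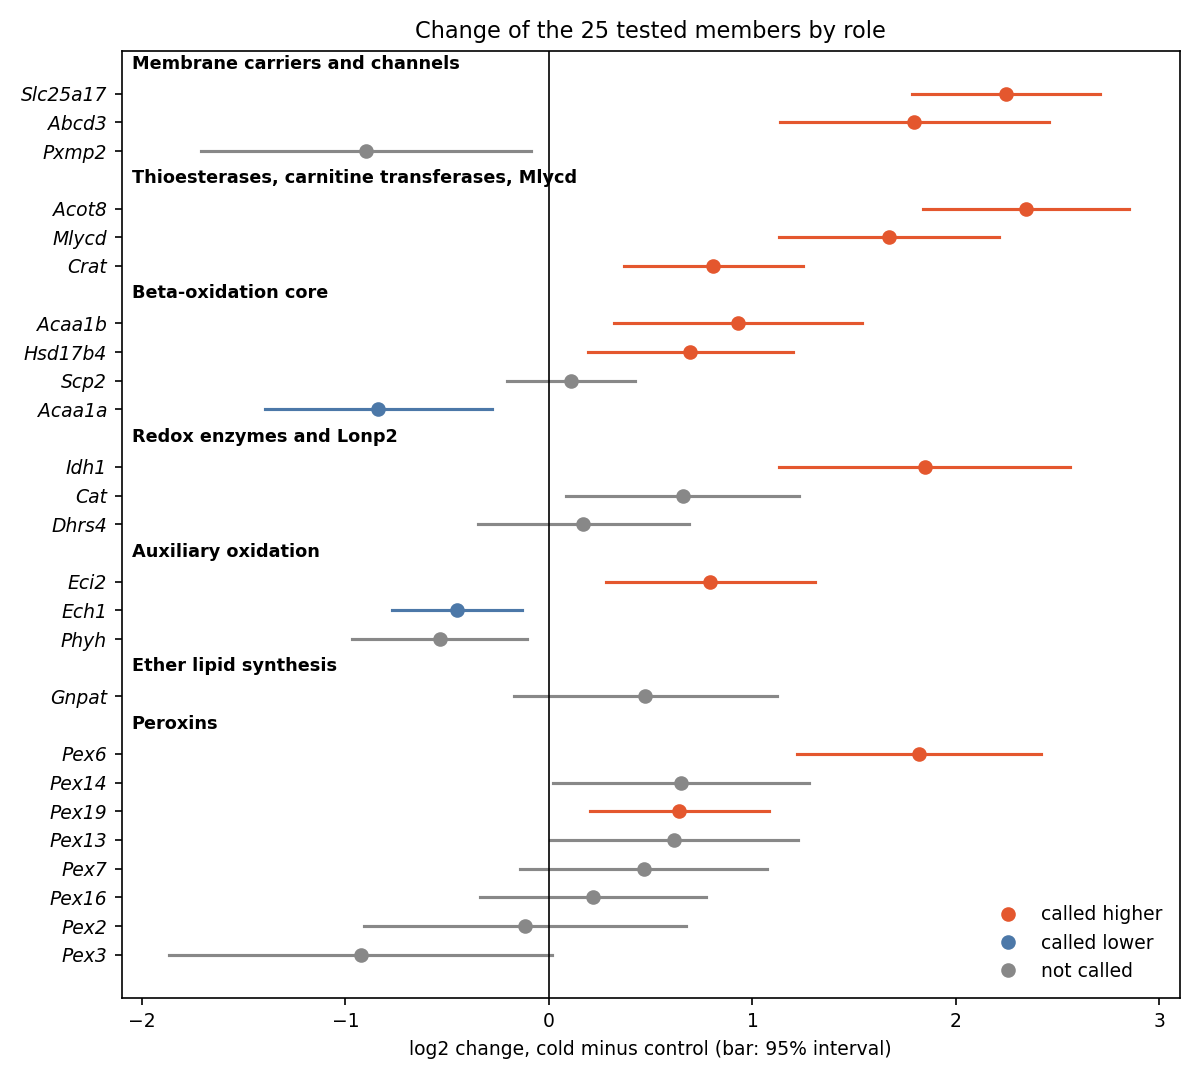
Log2 change (x axis, cold minus control) of each of the 25 tested members, grouped by role, with its 95% interval as a bar. The changes run from -0.93 for Pex3 to 2.34 for Acot8. The 11 called higher are in orange, the 2 called lower in blue and the 12 not called in grey.

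By summed level the largest fold difference was in the carriers of the peroxisomal membrane. Slc25a17 (chromosome 15, 81318911 to 81360812 on GRCm38), which carries coenzyme A, FAD and NAD+ into the organelle, stood at 131, 144 and 167 CPM in control 2, 9 and 14 and at 592, 848 and 656 CPM in cold 4, 11 and 15. All cold libraries lay more than 3-fold above every control library. It rose 4.75-fold (2.25 ± 0.21, adjusted p = 3.9e-05). Abcd3, which carries branched and dicarboxylic acyl-CoA esters and is a main protein of the membrane (chromosome 3, 121758774 to 121815302), stood at 43.8, 84.3 and 101 CPM in control and at 247, 318 and 228 CPM in cold. The groups did not overlap, although the controls differed more than 2-fold among themselves, with control 2 lowest. It rose 3.47-fold (1.80 ± 0.30, adjusted p = 0.00114). Pxmp2, which forms a channel in the membrane, had a mean of 11.6 ± 5.58 CPM in control against 6.52 ± 0.957 CPM in cold (SD, n = 3 each) and did not pass (-0.90 ± 0.37, adjusted p = 0.0828). Without control 9 it was called lower (-1.17, adjusted p = 0.0310). Pxmp4 had 52 reads over all libraries and Abcd2, another acyl-CoA carrier, had 0, and neither was tested. Pxmp4 was called higher with no count filter, without control 2 and without cold 15, and in no other alternative. It reached the filter level of 4.19 CPM in 0 control and 2 cold libraries, so these calls are no support for a count of rises.

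**Figure D2:**
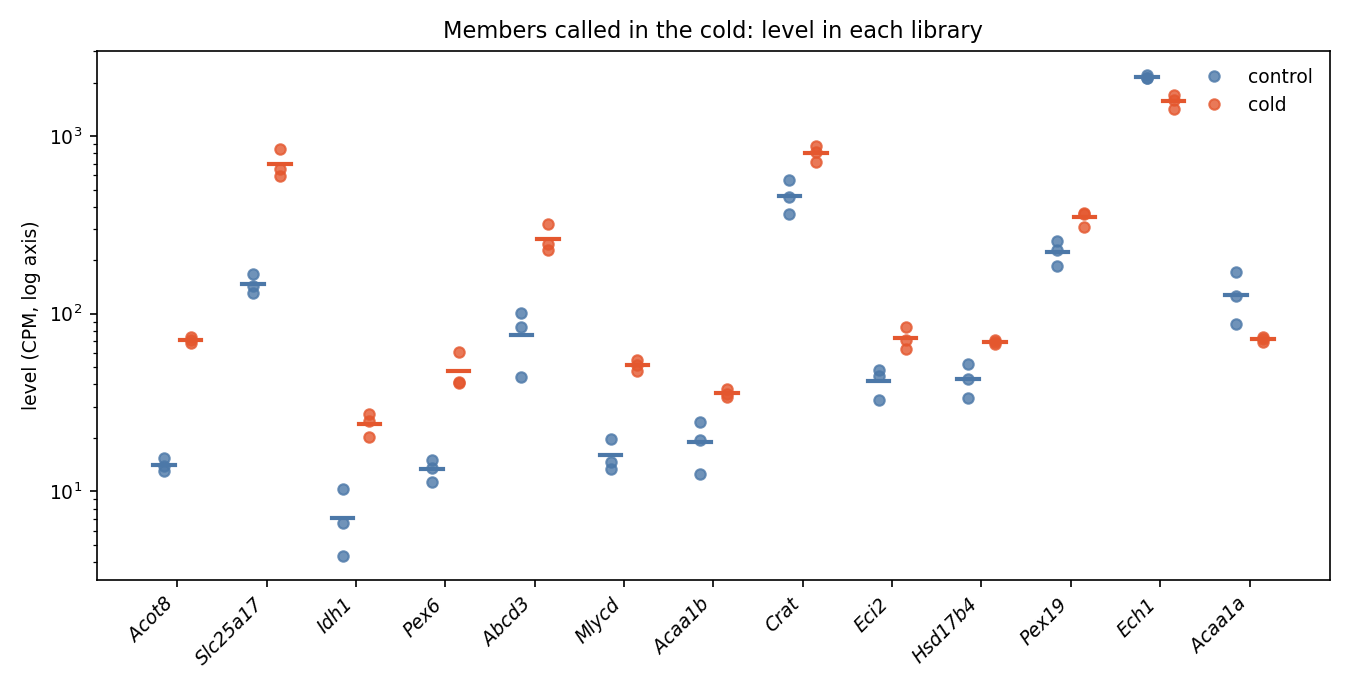
Level in CPM (log axis) of the 13 called members in each library, control in blue and cold in orange, with the group mean as a line, ordered by log2 change. The cold and control points of each gene do not overlap.

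The 3 tested genes among the thioesterases, the carnitine transferases and Mlycd rose. Acot8, a thioesterase that cuts a broad range of acyl-CoA esters (chromosome 2, 164792765 to 164804882), stood at 13.0, 15.4 and 13.8 CPM in control and at 68.1, 73.8 and 71.2 CPM in cold. The libraries of each group lay close together, and it rose 5.08-fold (2.34 ± 0.23, adjusted p = 5.3e-05), the largest change among the tested members. Its exons overlap those of Snx21 on the opposite strand, which held 17 reads against 704 of Acot8, and whether strand was used in counting is not stated. Mlycd, the malonyl-CoA decarboxylase, which is found in peroxisomes, mitochondria and the cytosol (chromosome 8, 119394878 to 119411102), stood at 14.6, 13.4 and 19.8 CPM in control and at 47.7, 51.3 and 55.0 CPM in cold. It rose 3.18-fold (1.67 ± 0.25, adjusted p = 0.000558), with no overlap. Crat, the carnitine acetyltransferase of peroxisomes and mitochondria, stood at 362, 453 and 563 CPM in control and at 819, 877 and 717 CPM in cold. It rose 1.75-fold (0.81 ± 0.20, adjusted p = 0.0100), and its lowest cold library lay above its highest control. With cold 4 as the only cold library its call was lost (0.65 to 0.95 over all alternatives, adjusted p 0.000291 to 0.0844). Crot, the carnitine octanoyltransferase, and Acot4, a succinyl-CoA and dicarboxylyl-CoA thioesterase, had 29 and 15 reads over all libraries and were not tested.

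Of the 4 tested core genes of peroxisomal beta-oxidation 2 were called higher, 1 was called lower and 1 did not pass. Each of these calls was lost when some single libraries were left out. Hsd17b4, the bifunctional enzyme that hydrates and dehydrogenates branched and very long acyl-CoA esters, stood at 33.5, 43.2 and 52.2 CPM in control and at 69.5, 71.2 and 67.9 CPM in cold. It rose 1.62-fold (0.70 ± 0.23, adjusted p = 0.0372). Its lowest cold library lay above its highest control. The call was lost without control 2, control 9 or any 1 of the cold libraries (0.53 to 0.72, adjusted p 0.0634 to 0.0999). The change was 0.98 on flow cell 1 alone (adjusted p = 0.0135) and 0.38 on flow cell 2 alone (adjusted p = 0.257), and at equal depth it was 0.59 (adjusted p = 0.0703). Scp2, which encodes a thiolase fused to a sterol carrier protein, stood at 2260.4, 2041 and 1934 CPM in control and at 2307, 2315 and 2092 CPM in cold. The groups overlapped, and the change was 0.11 ± 0.14 (adjusted p = 0.597, 95% interval -0.21 to 0.42). A pseudogene, Scp2-ps2, matches Scp2 over 1371 bases at 99.6% identity and held 79 reads against 29606 of Scp2. Ehhadh, the second bifunctional enzyme, had 0 reads in each control library and 1, 5 and 3 in cold 4, 11 and 15.

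The thiolase that closes the cycle is encoded in the mouse by a pair of neighbouring genes, Acaa1a and Acaa1b, and these parted. On GRCm38 Acaa1a lies on chromosome 9 from 119339676 to 119350299 on the plus strand and Acaa1b on the same chromosome from 119148023 to 119157093 on the minus strand. Acaa1a stood at 87.6, 125 and 172 CPM in control and at 73.5, 69.5 and 71.8 CPM in cold, and it fell by 0.84 ± 0.25 on the log2 scale (adjusted p = 0.0264). Acaa1b stood at 12.4, 19.5 and 24.6 CPM in control and at 33.9, 35.4 and 37.9 CPM in cold, and it rose 1.90-fold (0.93 ± 0.28, adjusted p = 0.0249). Neither gene had overlapping groups, and for both the control libraries were the more scattered ones. The call of Acaa1a was lost without control 14 or any 1 of the cold libraries (-0.87 to -0.59, adjusted p 0.0561 to 0.0878), and with no count filter. That of Acaa1b was lost without control 2, control 9 or any 1 of the cold libraries (0.67 to 0.95, adjusted p 0.0505 to 0.0777).

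Within a library, the share of the pair's reads that fell on Acaa1b does not depend on scaling, and it was the steadier measure. It was 12.4%, 13.5% and 12.5% in control 2, 9 and 14 and 31.6%, 33.8% and 34.5% in cold 4, 11 and 15. The exact (Clopper-Pearson) 95% intervals, which cover counting error only, reached at most 20.2% in a control library and at least 26.5% in a cold library. The group means were 12.8% ± 0.574 and 33.3% ± 1.54 (SD, n = 3), a difference of 20.5 percentage points. The exact two-sided permutation p was 0.1, the smallest that 3 against 3 libraries can give. With Acaa1a lower and Acaa1b higher in every cold library than in every control, the share had to separate the groups. This p was thus fixed in advance and is no support of its own. The share was computed after the opposite changes of the genes were seen. The sum of both genes was 147 ± 48.1 CPM in control and 107 ± 2.39 CPM in cold, and its groups overlapped.

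**Figure D3:**
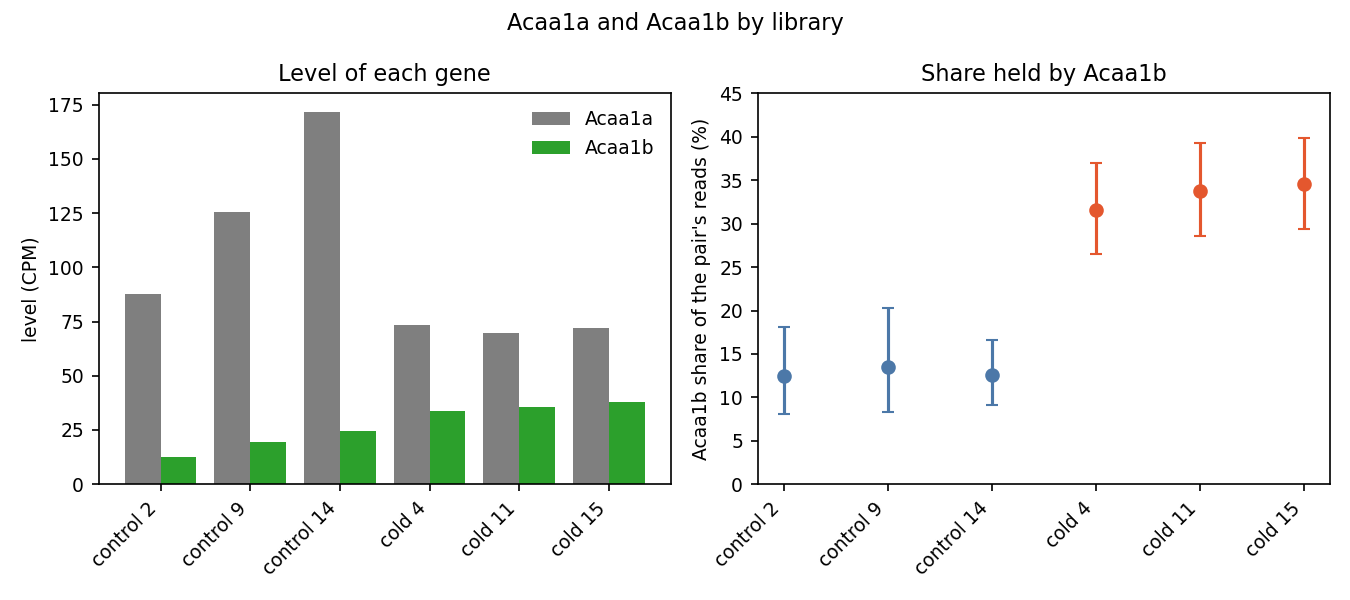
Left, level in CPM of Acaa1a (grey) and Acaa1b (green) in each library. Right, the share of the pair's reads on Acaa1b in percent, with exact 95% binomial intervals, which stay under 20.2% in control (blue) and above 26.5% in cold (orange).

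The coding sequences of the pair are of equal length, 1272 bases, and differ at 44 positions (96.5% identity). Nothing in the labels or files states how a read that fits both was assigned, so the split between the genes is uncertain. The stretch from base 259 to 318, counted from the first base of the start codon, was picked for its 11 differences. They are the most among 60-base windows that begin at a codon, so it does not stand for the 44 differences over 1272 bases. Capitals mark the bases that differ.
Acaa1a: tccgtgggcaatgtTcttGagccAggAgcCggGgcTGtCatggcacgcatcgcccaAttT
Acaa1b: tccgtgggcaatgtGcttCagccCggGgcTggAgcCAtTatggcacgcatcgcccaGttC
Exons of Acaa1a also overlap those of Myd88 on the opposite strand, which held 15 reads against 1217 of Acaa1a.

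Auxiliary enzymes, which prepare unsaturated or branched acids for the cycle, held one rise and one fall. Ech1, a dienoyl-CoA isomerase of peroxisomes and mitochondria, stood at 2213, 2127 and 2129 CPM in control and at 1603, 1712 and 1413 CPM in cold. It fell by 0.45 ± 0.14 on the log2 scale (adjusted p = 0.0332), a small change between groups that did not overlap. The call was lost without control 9, control 14 or any 1 of the cold libraries (-0.51 to -0.37, adjusted p 0.0542 to 0.132), and with library totals alone. Eci2, an enoyl-CoA isomerase, stood at 44.4, 32.9 and 48.0 CPM in control and at 63.1, 84.4 and 71.2 CPM in cold. It rose 1.73-fold (0.79 ± 0.23, adjusted p = 0.0236), and the call was lost without control 9 or cold 11 (0.63 and 0.68, adjusted p 0.0930 and 0.0960). It was also lost on flow cell 2 alone (0.62, adjusted p = 0.0820) and at equal depth (0.72, adjusted p = 0.0535). Phyh, the hydroxylase that starts alpha-oxidation of phytanic acid, stood at 394, 405 and 427 CPM in control and at 305, 317 and 222 CPM in cold. It did not pass (-0.54 ± 0.20, adjusted p = 0.0554), although each cold library lay below each control. Without control 2 it was called lower (-0.57, adjusted p = 0.0432), as it was by DESeq2. Amacr, Pecr, Hacl1 and Decr2 had 46, 37, 12 and 8 reads over all libraries and were not tested.

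Among the redox enzymes Idh1, which makes NADPH in the cytosol and in peroxisomes (chromosome 1, 65158616 to 65186500), stood at 4.33, 10.3 and 6.60 CPM in control and at 24.8, 27.1 and 20.1 CPM in cold. It rose 3.60-fold (1.85 ± 0.33, adjusted p = 0.00160), with control levels that rested on 8 to 11 reads a library. Cat, the catalase that breaks down hydrogen peroxide, stood at 352, 698 and 698 CPM in control and at 782, 1092 and 879.9 CPM in cold. The groups did not overlap, but control 2 lay far below the other controls, and the change did not pass (0.66 ± 0.26, adjusted p = 0.0734). With library totals alone and with no count filter Cat was called higher. Dhrs4, a carbonyl reductase, stood at 70.1 ± 15.1 and 79.3 ± 12.6 CPM (SD, n = 3 each) and did not pass (0.17 ± 0.24, adjusted p = 0.613). Gnpat, the acyltransferase that starts ether lipid synthesis, stood at 17.95 ± 5.23 and 24.9 ± 5.44 CPM (SD, n = 3 each) and did not pass (0.47 ± 0.29, adjusted p = 0.241). Agps and Far1, which complete the early steps of that pathway, had 1 read each and were not tested. Lonp2, the matrix protease, had 37 reads.

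Of 8 tested peroxins 2 rose, 25% against 18.1% of all tested genes called higher and 33.2% called in either direction. Pex6, an ATPase that pulls the used import receptor out of the membrane (chromosome 17, 46711463 to 46725541), stood at 13.5, 11.3 and 15.0 CPM in control and at 61.1, 41.0 and 40.5 CPM in cold. It rose 3.53-fold (1.82 ± 0.27, adjusted p = 0.000610), and the lowest cold library was more than 2-fold above the highest control. Pex19, the chaperone that delivers membrane proteins to the organelle, stood at 186, 229 and 256 CPM in control and at 366, 370.4 and 309.7 CPM in cold. It rose 1.56-fold (0.64 ± 0.20, adjusted p = 0.0292), and the call was lost without control 2, control 9, cold 4 or cold 11 (0.51 to 0.63, adjusted p 0.0523 to 0.111). The other tested peroxins did not pass. Pex13 and Pex14, which dock the import receptor at the membrane, had changes of 0.61 ± 0.28 (adjusted p = 0.110) and 0.65 ± 0.29 (adjusted p = 0.103), and all cold libraries lay above all controls for Pex13 but not for Pex14. Pex7, the receptor for the signal near the protein start, and Pex16, which acts in membrane assembly, had changes of 0.46 ± 0.28 (adjusted p = 0.221) and 0.22 ± 0.25 (adjusted p = 0.539). Pex3, the membrane anchor for Pex19, had a change of -0.93 ± 0.43 (adjusted p = 0.119), on 58 reads in all, and Pex2, a subunit of the ubiquitin ligase of import, one of -0.12 ± 0.36 (adjusted p = 0.828). Pex5, the main import receptor, had 17 reads, Pex11a, which acts in division of the organelle, 23, Pex10 3 and Pex26, which anchors Pex6, 0.

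Sums over the members of a role follow its most-read genes. The 4 carriers and channels with reads summed to 194, 235 and 279.6 CPM in control and to 851, 1179.7 and 894 CPM in cold, with most of the sum from Slc25a17 and Abcd3. The 11 peroxins with reads summed to 365 ± 45.3 CPM in control and 562 ± 56.2 CPM in cold (SD, n = 3), with no overlap. Most of that sum was from Pex19, with means of 224 CPM in control and 349 CPM in cold. The 5 core beta-oxidation genes, most of whose reads were of Scp2, summed to 2268 ± 111 and 2416 ± 126 CPM and overlapped. The 7 auxiliary genes, most of whose reads were of Ech1, summed to 2609.7 ± 44.9 and 1939.9 ± 208 CPM, with every cold library lower. These sums are descriptions and were not tested.

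**Figure D4:**
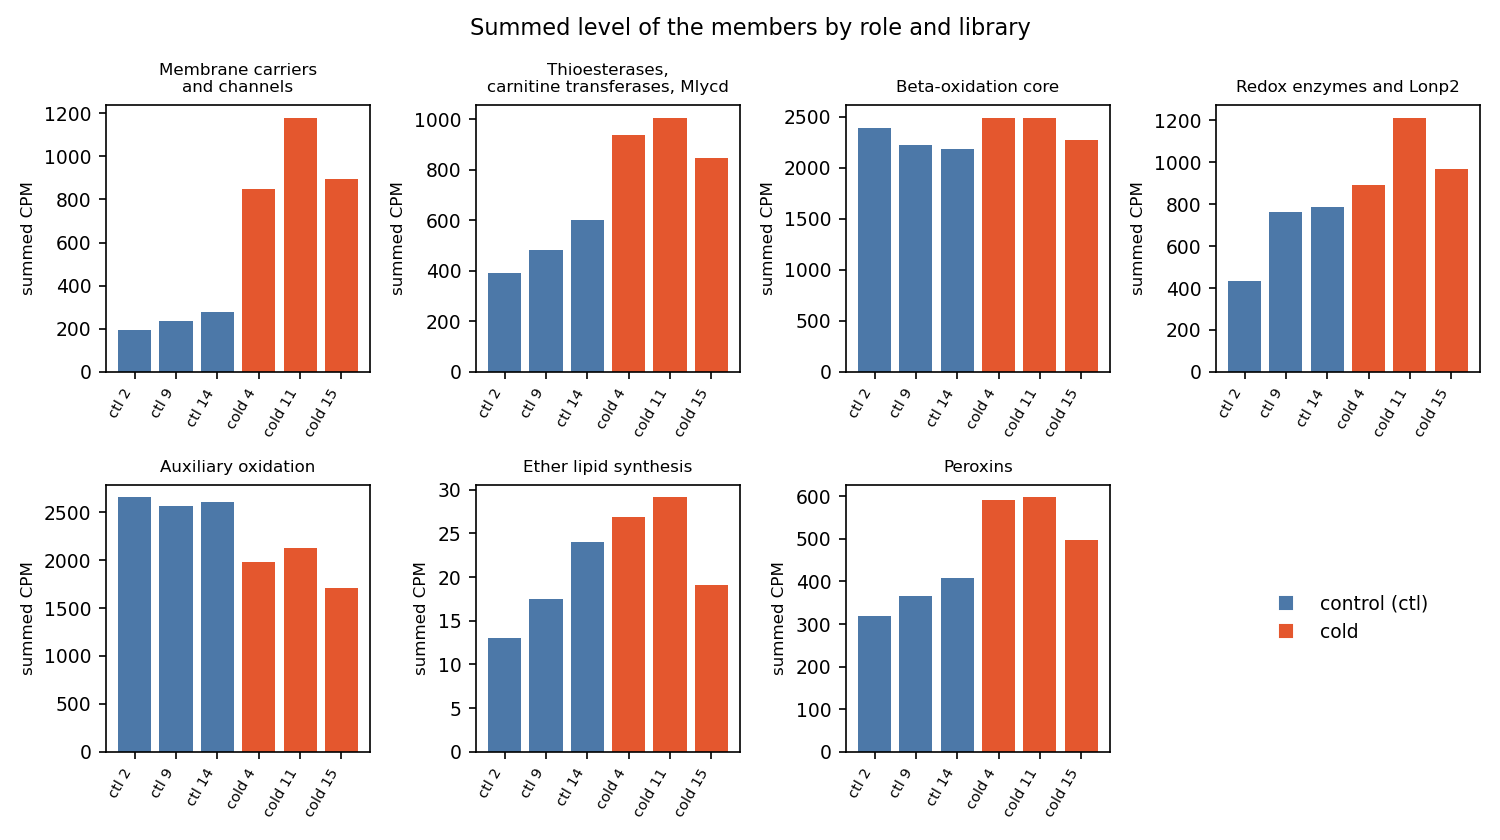
Summed level (CPM, each y axis from 0 and scaled to its group) of the members of each role in each library, control in blue and cold in orange. The carriers and channels reach at most 279.6 CPM in control and at least 851 CPM in cold, while the core beta-oxidation genes overlap.

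The reads were deposited per annotated transcript, so the transcripts of a gene can be compared. How much of a transcript each read covered was not measured here. The 39 members with reads had reads on 117 transcripts, of which 36 were tested. Of these 16 were called higher and 2 lower, against 32.7% of all tested transcripts called. Most members rested on 1 transcript: Slc25a17-201 held 99.7% ± 0.477 of the gene's reads in control and 99.6% ± 0.125 in cold, and Acaa1b and Hsd17b4 had all reads on 1 transcript. Crat was split between Crat-201, with 50.7% ± 0.706 in control and 50.3% ± 0.136 in cold, and Crat-203, with 44.3% ± 1.27 and 44.1% ± 1.36 (SD, n = 3). Both have a coding sequence of 1878 bases, and both rose, by 0.80 ± 0.21 (adjusted p = 0.0114) and 0.80 ± 0.22 (adjusted p = 0.0163).

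Over all libraries together, Pex6 reads fell mostly on a transcript annotated as a retained intron, Pex6-203, rather than on the protein-coding Pex6-201. Pex6-203 held 60%, 54.5% and 48.0% of the reads in control 2, 9 and 14 and 61.5%, 61.3% and 60.2% in cold. In control 14 Pex6-201 held more, 52%. The control shares rest on only 25, 11 and 25 Pex6 reads, and the cold shares on 182, 124 and 123. Both transcripts rose, Pex6-203 by 1.99 ± 0.31 (adjusted p = 0.000516) and Pex6-201 by 1.63 ± 0.34 (adjusted p = 0.00345). Eci2-201 held 63.2% ± 5.08 of Eci2 reads in control and 71.8% ± 4.03 in cold, and it rose (1.00 ± 0.25, adjusted p = 0.00983), while Eci2-211, whose coding sequence is 1173 rather than 1074 bases, did not pass (0.39 ± 0.29, adjusted p = 0.327). Likewise Pex19-201 rose (0.70 ± 0.21, adjusted p = 0.0238), and Pex19-202 did not pass (0.35 ± 0.22, adjusted p = 0.246). A call for one transcript and not for another does not show that they differ. The test of the shares themselves, diffSpliceDGE of edgeR, called 0 of the 7 members with 2 or more tested transcripts, against 1.67% of all 539 such genes. One of the 7, Ech1, had a p under 0.05 before adjustment (adjusted p = 0.384), and without control 2 its share was called. No other tool was run on the shares.

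**Figure D5:**
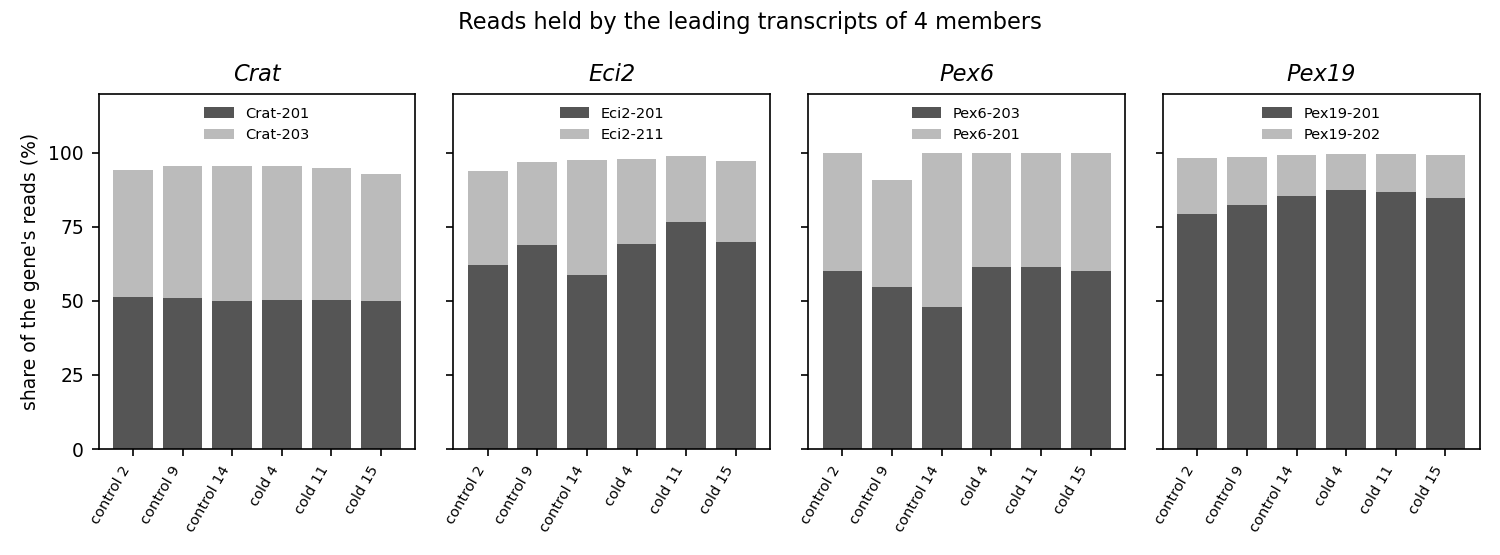
Share (%) of the reads of Crat, Eci2, Pex6 and Pex19 held by the 2 leading transcripts of each gene in every library. The Crat shares stay near 50% and 44% in both groups, and the Pex6 share of Pex6-203 runs from 48.0% to 60% in control and from 60.2% to 61.5% in cold. The control shares of Pex6 rest on 11 to 25 reads a library.

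Beyond the 41 members, 66 other genes of peroxisomal enzymes, membrane proteins and regulators were listed, and 24 had enough reads to be tested. Of these 8 rose and 4 fell, 50% called against the 33.2% of all tested genes. The 8 include Slc27a2 and Tmem135, which did not reach the filter level in all control libraries. This list too was chosen with earlier results of these data known. Ephx2, an epoxide hydrolase of peroxisomes and cytosol, rose from 935 ± 111 to 2568 ± 202 CPM (1.46 ± 0.16, adjusted p = 8.8e-05). Dhrs7b, a reductase of ether lipid synthesis, rose from 71.5 ± 6.13 to 162 ± 12.0 CPM (1.18 ± 0.20, adjusted p = 0.00116). Slc27a2, which activates very long fatty acids, had 3, 1 and 1 reads in control 2, 9 and 14 and 36, 27 and 29 in cold 4, 11 and 15. Its control levels lay at or under the 3-read floor, and it passed the count filter through the cold libraries alone, so its call adds nothing to the count of rises. Acsl1, an acyl-CoA synthetase found on several membranes, rose by 0.89 ± 0.23 (adjusted p = 0.0123), and Hsdl2, Nudt19 and Tmem135 rose as well. Tmem135 stood at 3.25 CPM in control 2, under the filter level of 4.19 CPM. Its call also adds nothing to the count of rises. Falls included those of Pmvk and Paox, of the mevalonate pathway and of polyamine oxidation, at -2.04 ± 0.25 (adjusted p = 0.000204) and -1.46 ± 0.35 (adjusted p = 0.00842), and of the mostly cytosolic superoxide dismutase Sod1 at -1.14 ± 0.17 (adjusted p = 0.000667).

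The 6 members Slc25a17, Acot8, Abcd3, Mlycd, Idh1 and Pex6 were called higher under every one of the 15 alternatives tried. These alternatives include the fit with cold 4 as the only cold library, chosen after seeing the data. What part muscle content had in the changes was not tested. The other 7 called members kept their direction in that fit, with changes of -0.75 (Acaa1a) to 0.90 (Acaa1b), and were not called (adjusted p 0.0844 to 0.488). Of the 16 members that were not tested, 14 had reads, from 1 to 52 each over all libraries. Length was taken from the most-read protein-coding transcript, or without reads from the one with the longest coding sequence. Its median was 2920.5 bases for these 16 members, against 2006 bases for the tested members.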

How the data were processed

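Interscapular brown fat RNA was selected for poly(A) in 2 rounds and copied into full-length cDNA from capped ends (TeloPrime) over 27 PCR cycles, per the labels' protocols. From each library 400 ng of cDNA was barcoded for nanopore sequencing, and each was run on 2 flow cells. The protocol names eWAT, a white depot, while the tissue label gives interscapular brown fat, which was used. The deposited files hold counts, whole reads per Ensembl transcript and flow cell, not normalized by the authors, and transcripts without a read are not listed. The submitters' processing notes name minimap2 and GRCm38. No molecular identifiers are named, so intervals and floors cover counting error only.

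Counts were summed over flow cells and over transcripts of a gene through GENCODE M21. Of 14693 identifiers 14671 matched, and the other 22 held at most 0.00433% of a library. Genes were fitted in edgeR 4.0.16 (R 4.3.3) with filterByExpr at a minimum count of 10, trimmed mean of M-values scaling and the robust quasi-likelihood test, and called at a Benjamini-Hochberg adjusted p under 0.05 over all genes. Standard errors were taken from the log2 change and its F statistic. Replicates are mice with separate numbers. Transcripts were fitted in the same way. The alternatives included DESeq2 1.42.0, other scaling, no filter, equal depth, single flow cells, protein-coding transcripts alone and leaving out each library. On simulated data of 2003 genes for this comparison, 98.9% of 4-fold and 37.9% of 2-fold changes were called, with 0.66% of unchanged genes. In the simulation 1818 of the 2003 genes were unchanged, while 33.2% of the genes tested in the data were called. These rates need not hold for the data. Near-identical copies were sought with blastn 2.17.0 at 90% identity over 200 bases. Members and lists were chosen with earlier results of these data known. Values are given for each member that was called or had at least 100 CPM, and others by reads or change. Of the 66 other peroxisomal genes, the 8 called with the smallest p are given with values, apart from what is not reported here.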

Additional observations from a re-analysis of the deposited data

How the results depend on the processing

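Of the 11 rises and 2 falls among the members, the rises numbered 7 to 11 and the falls 0 to 3 when 1 library was left out at a time. The 7 rises were seen without control replicate 9 and without cold replicate 11, and no fall was called without control replicate 14 or without any 1 of the cold libraries, where edgeR gave 2 or 3 members lower at an unadjusted p under 0.05. DESeq2 called 11 higher and 3 lower. With library totals alone 12 members were higher, Cat added, and 1 lower. With no count filter 13 were higher, Cat and Pxmp4 added, and 0 lower (2 at an unadjusted p under 0.05). At equal depth and on flow cell 2 alone 9 were higher and 2 lower, without Eci2 and Hsd17b4. Dropping the count filter also moved the median change of the genes of the reported fit upward by 0.12. With cold replicate 4 as the only cold library, an alternative chosen after seeing the data that assumes the lone library varies like the controls, 321 genes of the series were called rather than 695, 6 members higher and 0 lower (0 also at an unadjusted p under 0.05), and 7 member transcripts rather than 18. Called member transcripts numbered 7 to 16 when 1 library was left out, and members with changed transcript shares 0 to 1. Directions turned only in members that were never called: Pex2 was at 0.0078 with no count filter, and leaving out 1 library at a time gave -0.27 (without control replicate 9) to 0.024 (without control replicate 14) for Pex2, -0.018 (without control replicate 9) to 0.29 for Dhrs4 and -0.028 (without control replicate 9) to 0.33 for Pex16. The Acaa1b share differed by 20.5 percentage points, 21.9 on flow cell 2 alone and 18.7 with cold replicate 4 as the only cold library, alternatives also added after seeing the data. The cause of these shifts was not tested. No paired analysis was possible because the control and cold libraries share no mouse number. Of the 41 members 16 had too few reads to be tested at this depth.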

Other observations

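The codon pattern of the peroxisomal import signal was also looked for in the tested genes, after the values of the members had been seen. This search covered the 2022 tested genes that had reads on a protein-coding transcript with a complete coding end. Of the 25 tested genes whose coding sequence ends in it, 12 were called higher and 4 lower, where 18.1% and 15.1% of all 2093 tested genes were. The 12 include Lgr6 and Flad1, which did not reach the filter level in all control libraries. Of these 25, 16 are not members, and 7 of those were called higher and 3 lower. Of the 25, 7 genes are on neither list. Among them Acad11, an acyl-CoA dehydrogenase, rose by 1.04 ± 0.33 (adjusted p = 0.0329), and Flad1, the FAD synthase, by 1.33 ± 0.43 (adjusted p = 0.0356). Flad1 had a mean of 4.25 ± 2.32 CPM in control (SD, n = 3), so not every control library reached the filter level of 4.19 CPM. The call of Flad1 is no support for a count of rises. Usp2, a deubiquitinase, rose by 1.32 ± 0.34 (adjusted p = 0.0130). Lgr6, a receptor of the cell surface, had means of 1.85 CPM in control and 13.3 CPM in cold, and its control mean lay under the filter level, so its call is no support for a count of rises. Ccs, the copper chaperone of Sod1, fell by 1.33 ± 0.35 (adjusted p = 0.0138). The ending of a coding sequence does not show where a protein is found. These counts are a description, and no test was made of them.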
